A study of Homo sapiens with 12 samples.

Results

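The genes described here across 12 RNA libraries were STC2, STC1, ADM2, ADM, GDF15 and VEGFA, which encode secreted hormones or growth factors linked to cell stress, and VLDLR, a lipoprotein receptor of the cell surface. These 7 genes, of 34318 with a matched transcript, were picked by name, with no threshold, when results of both experiments were already known. Their differences between the groups are therefore given as a description, without a p-value, and nothing was supported with the number of them that moved.

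All libraries were made from HEK293T cells, a human embryonic kidney line carrying the SV40 large T antigen, which binds p53. In 1 experiment the cells were transfected with a control siRNA (siControl) or with siRNA to POLR3A (siPOLR3A), the largest subunit of RNA polymerase III, for 2 days. In the other, they were exposed to 25 µM ML60218, a small-molecule RNA polymerase III inhibitor, or to its vehicle, 0.1% DMSO, for 4 hours. Each of the 4 groups held 3 libraries from this 1 line, and no label says whether these came from separate cultures, so the p-values below measure only the spread between these libraries.

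Stanniocalcins 1 and 2 are glycoprotein hormones, and both can inhibit the protease PAPP-A, which frees insulin-like growth factors by cutting IGFBP4. Adrenomedullin (ADM) and adrenomedullin 2 (ADM2, also called intermedin) are peptides of the calcitonin family that act through the receptor CALCRL together with a RAMP protein. GDF15 is a distant member of the TGF-beta superfamily that signals through GFRAL and RET to lower food intake, and VEGFA drives blood vessel growth through FLT1, KDR and the neuropilins. STC2, ADM2, GDF15, VEGFA and VLDLR are known as genes that the transcription factor ATF4 can raise during the integrated stress response. In that response, phosphorylation of eIF2-alpha slows translation. Among the known targets of the hypoxia-inducible factors (HIF) are ADM, VEGFA and STC1.

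The promoter sequences are shown for the motifs of these known regulators. RefSeq windows on GRCh38.p14, from 250 bases before to 50 bases after the transcription start, were found for 5 of the 7 genes: STC2, ADM2, ADM, GDF15 and VLDLR. Both strands were searched for the ATF4-C/EBP composite element TGATGNAA, the HIF core (ACGTG or GCGTG) and the ER stress element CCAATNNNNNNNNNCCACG, whose last 5 letters can overlap a HIF core that begins on the opposite strand. No window held the ATF4-C/EBP element, which 3.617% of 35116 promoter windows hold, and none held the ER stress element, which 0.077% hold. The HIF core occurred 3 times in STC2, 1 time each in ADM2 and ADM, 5 times in VLDLR and 0 times in GDF15, and 48.445% of all windows have it. A match is a description of letters and not a binding site, and a window with no match says nothing of the factor. Matches that read on the opposite strand, in STC2 and VLDLR, are not marked below. The 28-base stretches below hold the core, in capitals, on the strand of the gene. They lie at chr5:173328620-173328647 (minus strand, 222 bases before the start), chr22:50481307-50481334 (plus strand, 225 bases before), chr11:10304961-10304988 (plus strand, 101 bases before) and chr9:2621666-2621693 (plus strand, 110 bases before), in that order.
STC2: cgcacgcaaacGCGTGgccgccgccagg
ADM2: accccgctgcaGCGTGgggaagtccggc
ADM: agcaggagcgcGCGTGgctgaggaaaga
VLDLR: ggctgcccggcGCGTGcaagaggagcgc

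The libraries held 37008325 to 49479476 estimated reads, of which 8.37 to 8.97% fell on transcripts that could not be matched to a gene. POLR3A was 90.8 ± 3.56 CPM (counts scaled to library size; SD, n = 3) in siControl and 17.6 ± 2.65 in siPOLR3A, as the labels state. All 8 markers chosen for HEK293T were measured, with a summed level of 601 to 633 TPM (abundance scaled for transcript length and depth) in siControl, 424 to 435 in siPOLR3A, 535 to 576 in DMSO and 594 to 656 in ML60218. Of 12 markers of leukocytes, endothelium, fibroblasts, hepatocytes and keratinocytes, PTPRC was at 0 in every library, and the list summed to 23.7 to 26.2, 27.8 to 32.5, 21.1 to 22.5 and 22.2 to 24.9 TPM in the same order. Most of that sum was COL1A1, at 18.2 to 28.1 TPM. In the HEK293T list VIM was the largest part, at 267 to 435 TPM, while KRT8, EPCAM and PAX2 reached at most 6.18, 4.09 and 5.19 TPM. The part of either marker list in the results below was not tested. ML60218 replicates 1 and 3 differed most among the replicate pairs, with a chi-square per gene of 21.7 against 4.16 to 13.3 for the other pairs.

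Per length of transcript, STC2 was the most abundant of the genes in all 4 groups, at 102 ± 8.35 TPM in siControl, 113 ± 2.38 in siPOLR3A, 50.9 ± 1.83 in DMSO and 210 ± 27.9 in ML60218 (SD, n = 3). Of this, the main coding transcript, STC2-201, made up 39.4, 43.0, 26.5 and 82.7 TPM, and a short transcript of 582 bases listed as a retained intron held 53.9, 57.6, 19.2 and 109.9 TPM while taking 5.55 to 10.3% of the reads. VEGFA followed at 45.5 ± 2.52, 49.2 ± 2.57, 27.5 ± 0.0977 and 44.6 ± 2.31 TPM. The largest part was VEGFA-215, listed as a retained intron, at 12.02, 13.64, 7.15 and 10.63 TPM in the same order. It took 30.5, 31.4, 28.8 and 25.99% of the VEGFA reads. VEGFA-205, the largest coding transcript, held 8.97, 9.24, 6.9955 and 8.499 TPM. Further transcripts listed as retained introns are in the VEGFA sum, so it is not a level of coding mRNA alone. ADM came after the VEGFA sum with 14.95 ± 1.60, 21.6 ± 1.03, 7.78 ± 0.325 and 7.60 ± 0.912 TPM. STC1 stood at 10.1, 8.94, 3.89 and 2.75 TPM, and ADM2 at 1.69, 2.77, 1.80 and 7.03 TPM. GDF15 was far lower, at 0.405, 0.362, 0.484 and 2.09 TPM. In ML60218 the ranges of ADM and ADM2 overlapped, as did those of STC1 and GDF15, while these 6 genes did not overlap their neighbours in the order in the other 3 groups. The levels come from bulk RNA, in which fewer cells making a transcript and less of it per cell cannot be told apart, and they do not measure the secreted proteins. The 2 control groups also differed, STC1 being 10.1 TPM in siControl and 3.89 in DMSO, so treated groups are compared only with the control of their own experiment.

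**Figure D1:**
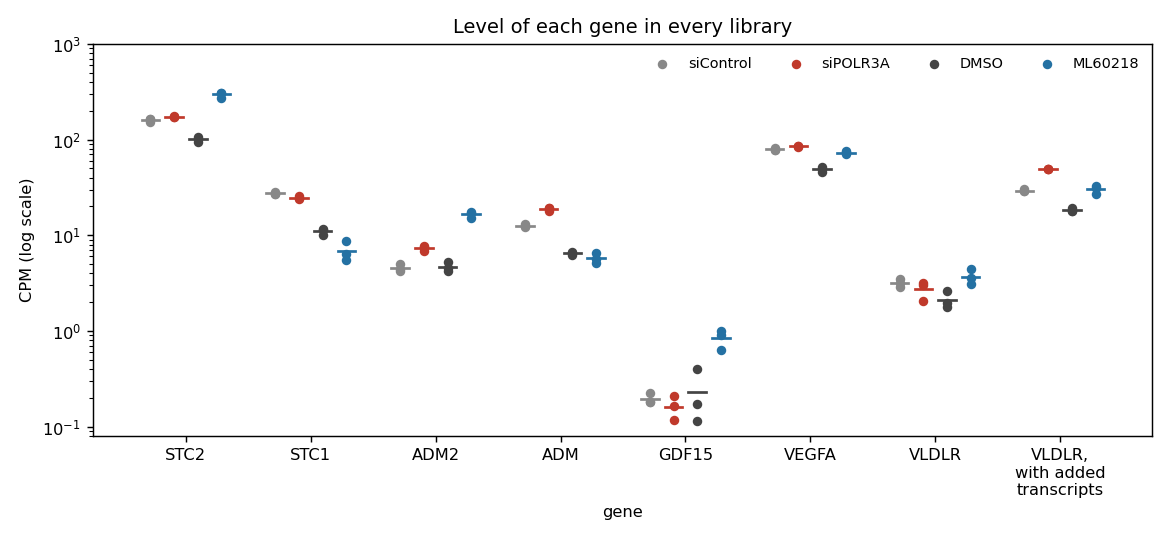
Level of each gene in every library, in CPM on a log axis: points are libraries and short lines the mean of 3, coloured by group. STC2, ADM2 and GDF15 stand highest in ML60218, ADM stands highest in siPOLR3A, and the last column shows VLDLR with 15 transcripts that were placed by their position in the table.

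STC2 (ENSG00000113739, chr5:173314713-173329503 of GRCh38, minus strand) had 164, 163 and 154 CPM in the siControl libraries and 176, 171 and 171 in the siPOLR3A libraries. The siPOLR3A libraries were all higher, by a log2 fold change of 0.11 (SE 0.029), and that call was lost when TPM values were tested with limma. In the inhibitor experiment STC2 had 101, 95.2 and 106 CPM with DMSO and 273, 307 and 310 with ML60218. The groups were well apart, with a 2.96-fold higher level under ML60218 (log2 1.56, SE 0.057), the 58th highest rise of 15461 genes tested. Leaving out any 1 library gave log2 values of 1.53 to 1.62 for the inhibitor.

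STC1 (ENSG00000159167, chr8:23841915-23854807, minus strand), the paralog of STC2, lay on the other side of its controls. It had 28.5, 26.7 and 27.1 CPM in siControl and 24.5, 25.8 and 23.7 in siPOLR3A, groups that did not overlap and differed by log2 -0.15 (SE 0.050). With DMSO it had 11.4, 10.0 and 11.8 CPM, and with ML60218 8.80, 6.38 and 5.51, a log2 difference of -0.68 (SE 0.165). ML60218 replicate 1 stood nearest to DMSO. The siPOLR3A call was lost at log2 -0.12 without siControl replicate 1 and at -0.13 without siPOLR3A replicate 3, and the ML60218 call at -0.64 without DMSO replicate 3 and at -0.63 without ML60218 replicate 2. The siPOLR3A call was also lost with total-count or upper-quartile scaling, with DESeq2 and with limma on TPM, and the last also ended the ML60218 call.

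ADM2 (ENSG00000128165, chr22:50481556-50486440, plus strand) was higher after both treatments. Its siControl libraries had 4.46, 4.23 and 5.003 CPM and its siPOLR3A libraries 7.56, 6.92 and 7.78, without overlap, a 1.62-fold difference (log2 0.70, SE 0.097). DMSO gave 4.19, 4.52 and 5.29 CPM and ML60218 15.05, 17.0 and 17.5, a 3.54-fold difference (log2 1.82, SE 0.101) and the 33rd highest rise in that comparison. Every alternative setting kept both calls, with log2 values of 0.58 to 0.77 for siPOLR3A and 1.70 to 1.92 for ML60218.

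ADM (ENSG00000148926, chr11:10304680-10307397, plus strand), which encodes the related peptide, was called after siPOLR3A and not with ML60218. It measured 12.5, 12.1 and 13.2 CPM in siControl and 19.1, 18.04 and 19.1 in siPOLR3A, 1.49-fold higher (log2 0.57, SE 0.058). With DMSO it measured 6.20, 6.74 and 6.53 CPM and with ML60218 6.55, 5.66 and 5.09. These groups overlapped through ML60218 replicate 1, and the log2 difference of -0.17 (SE 0.108) did not pass the threshold of an adjusted p under 0.05, which does not show that the level was the same.

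GDF15 (ENSG00000130513, chr19:18374731-18389176, plus strand) was close to the limit of detection. It had 6, 8 and 7 reads in the siControl libraries and 8, 6 and 4 in the siPOLR3A libraries, too few for the filter, so no fold change was fitted there. With DMSO it had 7, 5 and 17 reads and with ML60218 33, 23 and 45, or 0.174, 0.113 and 0.400 CPM against 0.904, 0.635 and 0.995. The groups did not overlap, and the fitted difference was 3.68-fold (log2 1.88, SE 0.399). It passed the filter on low counts only through the ML60218 group, so that it had to differ to be tested. DMSO replicate 3 was the highest control, and without it the log2 difference was 2.55, whereas without DMSO replicate 2 it was 1.55.

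VEGFA (ENSG00000112715, chr6:43770184-43786487, plus strand) was abundant in every group. It had 82.0, 77.0 and 78.3 CPM in siControl and 86.8, 84.4 and 85.6 in siPOLR3A, apart by log2 0.11 (SE 0.031). That call was lost under an offset for isoform length and under limma on TPM. With DMSO it had 49.0, 46.4 and 51.6 CPM and with ML60218 75.2, 74.2 and 70.1, a 1.49-fold difference (log2 0.58, SE 0.049) with no overlap.

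VLDLR (ENSG00000147852, chr9:2621834-2660053, plus strand), the receptor among the genes, binds apolipoprotein E particles and reelin, and its value depended on which transcripts were counted. Only 4 of its transcripts are in GENCODE release 29, and 15 further transcripts without a match lie between VLDLR transcripts in the deposited table and hold 86.1 to 96.1% of the reads of the 19. These 15 were placed by position and not by an identifier. The same rule was right for 99.944% of transcripts whose gene is known. With the 4 matched transcripts, VLDLR had 3.17, 2.86 and 3.45 CPM in siControl and 3.18, 2.06 and 3.03 in siPOLR3A, overlapping and not called (log2 -0.20, SE 0.165). The same transcripts were called lower at log2 -1.20 under an offset for isoform length and at -0.63 under limma on TPM. Their summed TPM did not overlap, at 0.606 to 1.14 in siControl and 0.278 to 0.430 in siPOLR3A. That fall lay in VLDLR-204, listed as a processed transcript, which averaged 0.550 TPM in siControl and 0 in siPOLR3A. The coding VLDLR-203 averaged 0.318 and 0.375 TPM, and its libraries overlapped. With the 15 added VLDLR had 29.1, 28.9 and 30.1 CPM against 48.8, 49.7 and 49.4, a 1.68-fold higher level in siPOLR3A (log2 0.75, SE 0.036). The direction of the sum thus turned, and the 2 sums conflict.

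With ML60218, VLDLR was higher by both counts. The matched transcripts gave 1.79, 2.60 and 1.97 CPM with DMSO and 4.39, 3.56 and 3.07 with ML60218 (log2 0.79, SE 0.181), and the wider set gave 19.5, 17.9 and 18.1 against 31.2, 32.5 and 27.2 (log2 0.71, SE 0.070). In neither set did the groups overlap. On the wider set VLDLR reached 10.6 ± 0.951, 16.5 ± 0.549, 6.27 ± 0.650 and 11.9 ± 1.36 TPM in siControl, siPOLR3A, DMSO and ML60218. That put it in the range of STC1 in siControl and above ADM in ML60218.

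**Figure D2:**
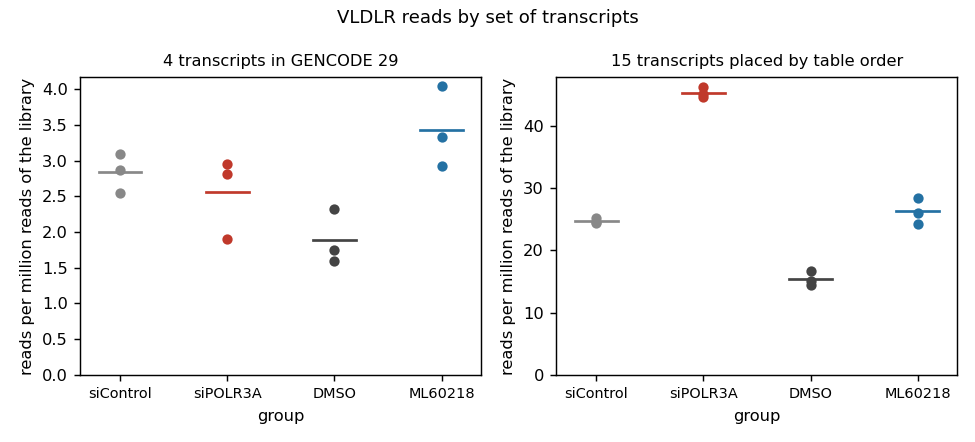
VLDLR reads in each library, scaled to the total reads of the library (RPM), for the 4 transcripts in GENCODE 29 (left) and the 15 transcripts placed by table order (right), on axes of different height; points are libraries and lines the mean of 3. The siPOLR3A libraries overlap siControl on the left and stand above it on the right, and ML60218 stands above DMSO in both panels.

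Called genes, those with an adjusted p under 0.05 in edgeR's quasi-likelihood test with Benjamini-Hochberg adjustment over all genes tested, were many in both experiments. Of the 6 genes of interest tested after siPOLR3A, 5 were called, 4 higher and 1 lower, beside 56.6% of all 15404 genes tested. In 5 of the 6 the groups did not overlap, beside 63.4% of all genes. These counts use matched transcripts. On the wider set, where 9163 genes were called in place of 8722, VLDLR was also called, higher, and its groups did not overlap. Of 7 tested with ML60218, 6 were called, 5 higher and 1 lower, beside 39% of 15461 genes, and in 6 the groups did not overlap, beside 51.9%. Both of these counts include GDF15, which passed the filter on low counts only through the ML60218 group. Since these contrasts were known when the genes were picked, nothing is read from the counts.

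The change after siPOLR3A was then set against the change after ML60218 in 1 fit of the 12 libraries, where a negative difference means less of a rise, or more of a fall, after siPOLR3A. The log2 difference was -1.45 (SE 0.070) for STC2, -1.12 (SE 0.140) for ADM2, -2.12 (SE 0.612) for GDF15 and -0.46 (SE 0.059) for VEGFA. It was positive for ADM, at 0.75 (SE 0.115), and for STC1, at 0.54 (SE 0.180). VLDLR showed -0.98 (SE 0.262) on matched transcripts and 0.03 (SE 0.078) on the wider set. All 7 were called on matched transcripts, beside 50.9% of 15780 genes, and nothing is read from this count. On the wider set, where 8408 genes were called in place of 8031, VLDLR was not called. GDF15, with 4 to 8 reads a library in the siRNA experiment, entered this fit only through ML60218, where it is high, and its difference was -2.79 without DMSO replicate 3. The STC1 call was lost at 0.51 without siControl replicate 2, at 0.50 without siPOLR3A replicate 2, at 0.52 without DMSO replicate 1, at 0.49 without DMSO replicate 3 and at 0.48 without ML60218 replicate 2. It was also lost with all libraries at 0.44 under an offset for isoform length and at 0.28 under limma on TPM. The 2 treatments also differed in agent and duration, so their effects cannot be told apart from these.

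**Figure D3:**
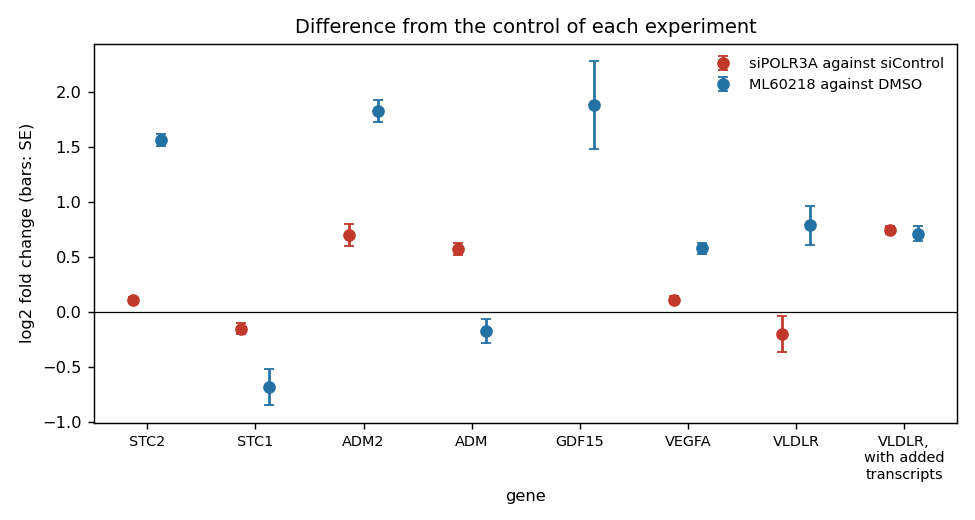
Log2 fold change of each gene from the control of its own experiment, with bars of 1 SE from the edgeR fit (n = 3 per group). STC2 and ADM2 lie at 1.56 and 1.82 with ML60218, ADM lies at 0.57 with siPOLR3A and at -0.17 with ML60218, and VLDLR turns sign with siPOLR3A when the added transcripts are counted; GDF15 was not tested with siPOLR3A.

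Receptors and partners of these hormones were present unevenly. The partner list, like the lists below, was written with earlier results known, and 17 of its 23 genes were tested. After siPOLR3A 6 were called higher and 5 lower with a median log2 fold change of -0.05, and with ML60218 3 were called in each direction with a median of -0.05, beside 27.4% higher and 29.2% lower, and 18.1% higher and 20.9% lower, of all genes. The median of all genes was 0.01 in both.

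For the adrenomedullin peptides, the receptor CALCRL fell from 3.98 ± 0.209 to 2.72 ± 0.299 CPM after siPOLR3A (log2 -0.55, adjusted p = 0.00208 by edgeR's quasi-likelihood test). With ML60218 it measured 4.13 CPM beside 3.84 with DMSO (log2 0.11, not called). The difference between these effects was called (log2 -0.65, adjusted p = 0.0121 by edgeR). RAMP1, which makes CALCRL a receptor for the calcitonin gene-related peptide, fell after siPOLR3A (log2 -0.41, adjusted p = 0.0198 by edgeR), while RAMP2, which makes it an adrenomedullin receptor, rose (log2 0.36, adjusted p = 0.0246 by edgeR). RAMP1 and RAMP2 were not called with ML60218, at log2 -0.23 and -0.35. RAMP3 was listed at 0 CPM in all groups. PAM, the enzyme that amidates both peptides, was abundant, at 95.1 CPM in siControl and 72.9 in DMSO, and was not called in either experiment (log2 -0.24 and -0.14).

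The GDF15 receptor GFRAL, whose known expression is in the hindbrain, averaged 0.0292 CPM in siControl, 0.0814 in siPOLR3A, 0.0474 in DMSO and 0.00914 in ML60218 and was not tested. Its co-receptor RET, at 1.56 CPM in siControl and 1.12 in DMSO, was not called (log2 -0.22 and 0.36). PAPPA and PAPPA2, the proteases that stanniocalcins inhibit, averaged at most 0.251 and 0.250 CPM and were not tested in either experiment. PAPPA passed the filter in the fit of the 12 libraries, where its difference was not called (log2 -0.75, SE 0.929). IGFBP4, which PAPP-A cuts, rose after siPOLR3A from 3.47 to 4.69 CPM (log2 0.43, adjusted p = 0.00424 by edgeR) and fell with ML60218 from 5.52 to 4.49 (log2 -0.30, adjusted p = 0.0461 by edgeR).

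Among the VEGFA receptors, FLT1 and NRP2 were called in opposite directions in the 2 experiments. FLT1 fell after siPOLR3A from 37.8 to 30.7 CPM (log2 -0.30, adjusted p = 0.00364 by edgeR) and rose with ML60218 from 30.8 to 36.1 (log2 0.23, adjusted p = 0.00421 by edgeR). NRP2 fell from 45.4 ± 0.670 to 27.5 ± 0.799 CPM (log2 -0.72, adjusted p = 1.88e-09 by edgeR) and rose from 32.7 ± 1.36 to 39.6 ± 2.29 (log2 0.28, adjusted p = 0.0036 by edgeR). The difference between the effects was called for both, at log2 -0.52 for FLT1 and -0.99 for NRP2 (adjusted p = 7.8e-05 and 8.22e-09 by edgeR). NRP1 fell after siPOLR3A (log2 -0.20, adjusted p = 0.000201 by edgeR) and was not called with ML60218 (log2 -0.04). KDR, the main signalling receptor, stood at 1.90 CPM in siControl and 1.10 in DMSO and was not called (log2 -0.10 and -0.39).

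Around VLDLR, the ubiquitin ligase MYLIP, which marks VLDLR for degradation, rose after siPOLR3A from 20.9 ± 0.947 to 34.3 ± 2.08 CPM (log2 0.71, adjusted p = 7.34e-08 by edgeR). It fell with ML60218 from 15.5 ± 0.141 to 12.5 ± 0.937 CPM (log2 -0.30, adjusted p = 0.0073 by edgeR), and the difference between the effects was 1.03 (adjusted p = 1.01e-07 by edgeR). The ligand RELN averaged at most 0.126 CPM and was not tested. Of the adaptors, DAB2 rose in both (log2 0.15 and 0.18, adjusted p = 0.0144 and 0.0138 by edgeR), and DAB1 was not called (log2 0.11 and 0.08).

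Genes related to the members by family numbered 31, of which 27 were tested after siPOLR3A and 26 with ML60218. After siPOLR3A 9 were called higher and 5 lower (median log2 0.08), and with ML60218 4 higher and 10 lower (median -0.08). Among all genes tested 27.4% were called higher and 29.2% lower after siPOLR3A, and 18.1% and 20.9% with ML60218. The lower count after siPOLR3A was 3 without siControl replicate 1, 3 without siControl replicate 3, 3 without siPOLR3A replicate 1 and 2 without siPOLR3A replicate 3, and the lower count with ML60218 was 6 without ML60218 replicate 2. GDF11, a TGF-beta family ligand, fell in both, from 94.3 to 41.1 CPM after siPOLR3A (log2 -1.20, SE 0.033) and from 104 to 73.3 with ML60218 (log2 -0.50, SE 0.094). INHBB, an activin subunit, rose after siPOLR3A from 5.80 to 10.5 CPM (log2 0.85, SE 0.079) and fell with ML60218 from 5.74 to 4.33 (log2 -0.41, SE 0.126). INHBE, an activin subunit secreted by liver that is also on the ATF4 list, rose in both, from 1.46 to 2.47 CPM (log2 0.76, SE 0.185) and from 1.498 to 3.97 (log2 1.40, SE 0.148). Each of these changes passed edgeR's quasi-likelihood test.

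The known regulators were followed through lists of their other target genes. Of 33 tested ATF4 and integrated stress response genes, 28 rose and 1 fell with ML60218, with a median log2 fold change of 0.63 beside 0.01 for all genes. After siPOLR3A 9 of 33 rose and 11 fell, with a median of -0.004. These counts are set beside 18.1% higher and 20.9% lower with ML60218, and 27.4% higher and 29.2% lower after siPOLR3A, among all genes. CHAC1, a glutathione-degrading enzyme, rose with ML60218 from 1.64 ± 0.0217 to 14.6 ± 1.61 CPM (log2 3.15, SE 0.108), and ATF5, itself a stress transcription factor, fell from 21.1 to 13.4 (log2 -0.66, SE 0.073). After siPOLR3A CHAC1 was not called (log2 0.47), and ATF5 rose from 7.89 to 10.7 CPM (log2 0.43, SE 0.093). The mRNA of ATF4, which is regulated mainly in translation, was not called with ML60218 (log2 0.14) and rose after siPOLR3A (log2 0.18, adjusted p = 0.00406 by edgeR). After siPOLR3A, DDIT4, an inhibitor of the mTOR pathway, fell from 175 to 117 CPM (log2 -0.58, SE 0.071), and with ML60218 it rose from 57.5 ± 4.48 to 163 ± 2.03 CPM.

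The hypoxia list split otherwise. After siPOLR3A 6 of 26 tested genes rose and 12 fell (median log2 -0.13), and with ML60218 7 rose and 4 fell (median 0.04). Scaling to total counts raised the first number for ML60218 to 12, and limma on TPM lowered the second to 0. Of all genes tested, 27.4% were called higher and 29.2% lower after siPOLR3A, and 18.1% and 20.9% with ML60218. EGLN3, the oxygen-sensing prolyl hydroxylase that HIF induces, fell after siPOLR3A from 31.8 to 13.2 CPM (log2 -1.26, SE 0.050), whereas KDM3A, a histone demethylase, rose from 74.9 to 126 (log2 0.75, SE 0.033). With ML60218 the glucose transporter SLC2A3 rose from 13.1 to 20.2 CPM (log2 0.62, SE 0.072) and PFKFB3, a glycolytic regulator, fell from 66.5 to 55.7 (log2 -0.26, SE 0.063). In the other experiment, EGLN3 was not called with ML60218 (log2 -0.08) and KDM3A rose (log2 0.14), while SLC2A3 and PFKFB3 fell after siPOLR3A (log2 -0.62 and -0.16).

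Of 20 p53 target genes, 9 rose and 6 fell after siPOLR3A (median log2 0.17), and 5 rose and 5 fell with ML60218 (median 0.02). The latter counts were small and moved with single libraries: 3 rose and 2 fell without DMSO replicate 1, 2 and 3 without DMSO replicate 2, 3 and 2 without DMSO replicate 3, and 3 and 3 without ML60218 replicate 2, while 3 fell without ML60218 replicate 3. TP53INP1 rose (log2 0.63) and RRM2B fell (log2 -0.54) after siPOLR3A, and GADD45A rose (log2 0.76) and PHLDA3 fell (log2 -0.34) with ML60218. In the other experiment, TP53INP1 fell (log2 -0.23) and RRM2B was not called (log2 0.03) with ML60218, and GADD45A fell (log2 -0.28) and PHLDA3 was not called (log2 0.21) after siPOLR3A. Of 22 genes of the ER unfolded protein response, which handle protein folding in the secretory pathway, 4 rose and 8 fell after siPOLR3A (median log2 -0.05) and 5 rose and 11 fell with ML60218 (median -0.11), the latter being 7 with total-count scaling. The siPOLR3A direction was not stable, since upper-quartile scaling gave 7 and 5. PDIA4, a disulfide isomerase, rose after siPOLR3A from 27.0 to 58.5 CPM (log2 1.11, SE 0.103) and DNAJC3, a co-chaperone, fell (log2 -0.75). With ML60218 the stress sensor ERN1 rose (log2 0.60) and SDF2L1 fell (log2 -0.66). In the other experiment, PDIA4 fell (log2 -0.19) and DNAJC3 was not called (log2 0.05) with ML60218, and ERN1 fell (log2 -0.20) and SDF2L1 was not called (log2 -0.14) after siPOLR3A. Beside the p53 and ER counts, 27.4% of all genes were called higher and 29.2% lower after siPOLR3A, and 18.1% and 20.9% with ML60218.

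**Figure D4:**
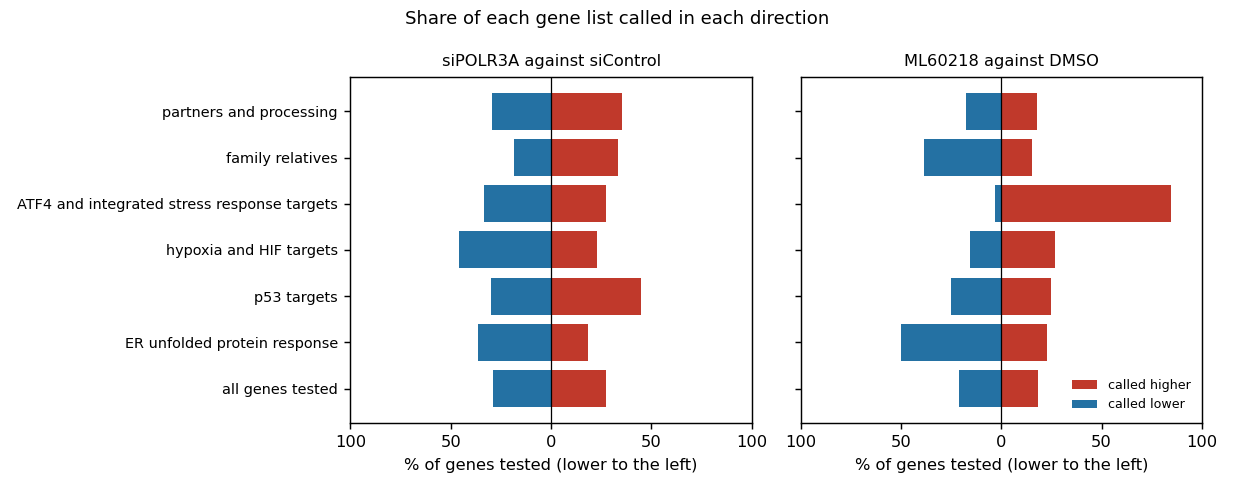
Share of each list, in percent of its genes tested, called higher (red, to the right) or lower (blue, to the left) in each experiment by edgeR, with all genes tested in the bottom row. With ML60218 the ATF4 list shows 28 of 33 genes higher, while in the siPOLR3A panel the same list shows 9 higher and 11 lower.

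To find genes with a like pattern, log2 CPM over the 12 libraries was correlated with each gene of interest after the mean of each experiment was removed, among 12268 protein-coding genes. These values are a description over 12 libraries that share the same groups, and carry no p. STC2 was most like ASNS (Pearson r = 0.997), asparagine synthetase, followed by SLC7A11 (r = 0.994), the cystine transporter, and DDIT3 (r = 0.990), the stress factor CHOP. All 3 are on the ATF4 list. ASNS measured 119 ± 3.24 CPM with DMSO and 240.0 ± 12.8 with ML60218 (log2 1.01), and 157 and 164 CPM in siControl and siPOLR3A (log2 0.06, not called).

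VEGFA resembled ERC2 (r = 0.977), DDIT3 (r = 0.971) and ASNS (r = 0.969), thus sharing 2 of its 3 genes with STC2. ADM2 was most like JRKL, DCLRE1C and GPCPD1 (r = 0.986, 0.984 and 0.982), genes that rose in both experiments. GPCPD1, a glycerophosphocholine phosphodiesterase, rose by log2 0.61 after siPOLR3A and 1.36 with ML60218. ADM resembled PLEKHG2, NAA16 and CDK11A (r = 0.984, 0.981 and 0.979), which rose after siPOLR3A and were not called with ML60218. CDK11A has a near-identical copy, CDK11B, with which its reads could be split, so its value is uncertain. STC1 was nearest to ALDOA (r = 0.977), a glycolytic enzyme of the hypoxia list, PGF (r = 0.974), a VEGFA relative, and HLA-DMB (r = 0.973).

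GDF15, with few reads, had lower values, with ZBTB8B, CLK4 and ID1 at r = 0.959, 0.952 and 0.941, and the matched VLDLR transcripts reached r = 0.902 with ORC6, then 0.891 with ZC3H12D and with TBC1D8B. Among the genes of interest themselves, STC2 had r = 0.970 with VEGFA, 0.947 with ADM2 and 0.872 with GDF15. It had -0.870 with STC1 and -0.233 with ADM. These genes were picked with both contrasts known, and GDF15 passed the filter on low counts only through ML60218. Nothing is therefore read from these values.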

How the data were processed

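Messenger RNA of 12 HEK293T libraries was used, grouped by sample title into 4 groups of 3. The authors deposited 1 table of estimated counts and TPM for 194142 transcripts; its layout is that of salmon output, per the file headers, and the program, its settings and the transcript release are not given in the sources used here. The submitters' processing notes list bcl2fastq 2.20, Trim Galore, DESeq2 and build hg38. Transcripts were matched by identifier to GENCODE 29 (158359 transcripts, 81.57%), and estimated counts as deposited were added up within each gene, then rounded to whole numbers; the planned design had assumed gene counts. TPM deposited by the authors was summed per gene for levels.

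Each experiment was fitted alone, and their difference over 12 libraries, with edgeR 4.0.16 (TMM, filterByExpr with a minimum count of 10 and total of 15, glmQLFTest; R 4.3.3), calling genes at a Benjamini-Hochberg adjusted p under 0.05. The fit was also run on simulated counts that gave every gene the same dispersion. That is a simpler setting than these data, and no result here rests on it. Alternatives used DESeq2 1.42.0, limma 3.58.1 on log2(TPM + 0.5), other scalings and filters, an isoform-length offset, unmatched transcripts placed by table position, a replicate block and each library left out.

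Members and lists (partners and processing, family relatives, ATF4, hypoxia, p53 and ER unfolded protein response) were chosen with earlier results of these data known. Named genes were the members, POLR3A, receptors and binding partners, each list's called gene with the highest rise and with the deepest fall above a mean log2 CPM of 1, and the 3 genes most correlated with each member; ATF4 and FGF21, outside this rule, were named after their values were seen. Depth sets the precision: GDF15 rests on 4 to 45 reads a library.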

Additional observations from a re-analysis of the deposited data

Results flagged for a closer look

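Reads on transcripts that had no match to a gene, and lay between transcripts of the same gene in the table, were above their controls in 3 cases. For VLDLR, the 15 such transcripts took 45.4 RPM (reads scaled to all reads of the library) in siPOLR3A beside 24.7 ± 0.408 in siControl (SD, n = 3), and 26.3 in ML60218 beside 15.4 ± 1.19 in DMSO. For VEGFA, the 1 such transcript took 5.34 RPM in ML60218 beside 2.72 ± 0.527 in DMSO. These reads are outside the matched counts, and their gene was assigned by table position.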

How the results depend on the processing

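Of 342 alternative values for the 20 fold changes and differences of the members, 319 kept direction and side of the threshold, 19 lost the call, 2 gained it (matched VLDLR after siPOLR3A, at -1.20 with the isoform-length offset and -0.63 with limma) and 2 turned. The reversed values were those of VLDLR with neighbouring transcripts included: 0.75 after siPOLR3A and 0.030 for the difference between the effects. The cause was not tested beyond the transcripts counted. Limma on log2(TPM + 0.5) gave 3 called members after siPOLR3A in place of 5, and 3921 called genes with ML60218 in place of 6029; the cause was not tested. That setting moved the median log2 fold change of all genes with ML60218 to 0.12, and raised the higher share among called genes from 46.4% to 81.8%; it left 2 family relatives, 0 hypoxia, 0 p53 and 4 ER genes called lower with ML60218. Total-count scaling gave 67.0% and upper-quartile scaling 58.6% there, and upper-quartile scaling 58.8% in place of 48.4% after siPOLR3A. With 1 library left out, called genes numbered 7998 to 8361 after siPOLR3A (8722 with all), 4159 to 6501 with ML60218 and 7504 to 8266 for the difference (8031 with all), and called members 4 to 5, 5 to 6 and 6 to 7. Same-numbered libraries did not deviate together (correlations of -0.159 to 0.0992), and with a replicate block 8493, 5393 and 7658 genes were called. Low depth limits GDF15.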

Other observations

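The isoforms of STC2 were not in equal shares. The coding transcript STC2-201 held 88.2% of the gene's reads in siControl, 88.0% in siPOLR3A, 93.0% in DMSO and 89.0% in ML60218. A short transcript of the gene (listed as retained intron, 582 bases) held 10.3 ± 0.980%, 10.1 ± 0.283%, 5.55 ± 0.0888% and 9.64 ± 0.334% (SD, n = 3), so its share was higher with ML60218 than with DMSO in all 3 libraries. These are shares that the quantification assigned between overlapping transcripts, and they were not tested. For ADM2, the share given to ADM2-201 ran from 0 to 53.8% between single libraries, and its 2 coding isoforms could not be told apart in these data. FGF21, another secreted factor of the integrated stress response, averaged 0.0657 CPM in siControl, 0.0608 in siPOLR3A, 0.0157 in DMSO and 0.149 in ML60218 and was too low to test.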
